A study of Mus musculus with 4 samples.

Results

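The genes described here encode the proteins of the cytosolic ribosome, the particle that translates messenger RNA in the cytoplasm. They were taken by symbol: RPL or RPS followed by a digit, RPLP, or RPSA, with the RPS6K kinase genes dropped. The rule took 76 of the 3117 genes listed at a transcription start site (TSS) or a transcription end site (TES), 76 of them at the TSS and 67 at the TES. Of these, 39 encode proteins of the large 60S subunit, 30 encode proteins of the small 40S subunit, and 7 are other symbols. The 7 are the paralogs Rpl7l1, Rpl22l1, Rpl36al and Rps27l, the retrogene Rps27rt, the processed pseudogene Rpl34-ps1, and Rps19bp1, which encodes a binding partner of Rps19 and not a ribosomal protein. The large subunit genes Rpl3, Rpl5, Rpl22, Rpl24, Rpl29, Rpl31 and Rpl39 were not analysed here.

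A ribosome needs its proteins in set proportions, and their genes are scattered over the genome, short, rich in introns that host small nucleolar RNAs, and among the most heavily transcribed in a growing cell. Their messenger RNAs open with a run of pyrimidines at the cap, the terminal oligopyrimidine (TOP) tract, which ties their translation to the mTOR pathway. RNA polymerase II (Pol II) carries a tail whose serine 2 becomes phosphorylated (Ser2P) as it moves into and through a gene, so that the mark is usually low at starts and high toward ends.

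The cells were B16F10, an established mouse melanoma line, as a Carm1 knockout (Carm1 KO) and as the wild-type parental line (control). Carm1 is an arginine methyltransferase that acts on histones, splicing factors and other nuclear proteins. The assay was mNET-seq, which digests chromatin with micrococcal nuclease, precipitates Pol II and sequences the short RNA it holds; each condition had 1 library from a Ser2P antibody and 1 from the 8WG16 antibody against the tail, 4 libraries in all. The 3 sets of cells grown for a condition were pooled after the nuclease, per the labels' protocols. The sources used here do not say how the knockout was made or from how many clones. The deposited tables give 1 Ser2P ratio per gene, end and condition, so there is no replicate spread, no test was possible, and every difference below describes these libraries only. Of 7 melanocyte genes fixed as a check of the label, Tyr, Tyrp1, Pmel, Mlana and Sox10 were listed, and Dct and Mitf were not analysed here. No value for Carm1 was analysed here, which leaves the knockout without a check from its target gene. Read depth is unknown, since the tables hold no counts, and a higher ratio from more Ser2P signal cannot be told apart from one with less signal in the divisor.

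The start regions of the genes the results turn on are shown first. RefSeq promoter windows on GRCm38.p6 matched 52 of the 69 core ribosomal protein genes. An unbroken run of at least 7 pyrimidines that touched the 10 bases on either side of the annotated start was present in 29 of the 52, or 55.8%, against 20.7% of the 2529 listed genes with a window and 22.5% of all 27025 genes with one. The median longest run was 7 bases in the ribosomal protein genes and 4 bases in both backgrounds. The lines below run from 50 bases before the start to 30 bases from it, 5′ to 3′ on the strand of the gene, with the longest such run in capitals. Rpl13, Rpl35 and Rps16 had 3 of the 5 largest increases of the Ser2P ratio at the TSS, Rps26 and Rps4x were among the genes with a lower ratio there, Rps15a had the highest TES ratio, and Rpl7a has a long pyrimidine run, part of which lies before the annotated start.
Rpl13, chr8:123102300-123102379, plus strand: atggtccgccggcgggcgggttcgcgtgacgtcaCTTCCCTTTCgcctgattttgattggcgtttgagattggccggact
Rpl35, chr2:39005102-39005181, minus strand: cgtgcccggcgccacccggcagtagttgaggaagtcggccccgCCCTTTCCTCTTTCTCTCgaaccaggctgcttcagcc
Rps16, chr7:28350639-28350718, plus strand: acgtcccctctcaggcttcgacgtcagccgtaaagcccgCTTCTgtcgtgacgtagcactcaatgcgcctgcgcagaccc
Rps26, chr10:128626477-128626556, minus strand: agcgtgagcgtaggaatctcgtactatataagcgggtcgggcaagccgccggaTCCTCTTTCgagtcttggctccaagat
Rps4x, chrX:102189362-102189441, minus strand: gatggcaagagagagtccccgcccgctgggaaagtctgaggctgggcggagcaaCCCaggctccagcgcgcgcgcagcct
Rps15a, chr7:118116118-118116197, minus strand: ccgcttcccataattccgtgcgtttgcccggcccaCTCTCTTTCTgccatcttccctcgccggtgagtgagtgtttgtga
Rpl7a, chr2:26910757-26910836, plus strand: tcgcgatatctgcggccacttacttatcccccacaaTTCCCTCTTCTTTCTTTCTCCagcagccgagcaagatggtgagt

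The runs differed in length between genes on both sides of the comparison. Rpl13 had a run of 10 bases, Rpl35 one of 18 and Rps16 one of 5, while Rps26 had a run of 9 and Rps4x one of 3. Other letters were searched on both strands over the whole window of 250 bases before to 50 after the start. Some genes have several annotated starts and so several windows. A match in any window counted for the gene, and the longest pyrimidine run over its windows was taken. The ETS letters CCGGAAG stood in 42.3% of the core ribosomal protein genes with a window, 28.1% of such listed genes and 9.93% of all such genes. The GC box letters GGGCGG stood in 65.4%, 72.1% and 38.2%, the YY1 letters AANATGGC in 17.3%, 14.9% and 6.96%, and the TATA letters TATAAA in 7.69%, 7.63% and 15.7%. The motifs and the pyrimidine run can share bases, and a match is a description of the sequence.

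At the ends of genes the ribosomal protein genes moved as a narrow block. The TES ratio was higher in Carm1 KO than in control in 67 of 67 genes, where 84.3% of all compared genes were. The median TES change, as log2(Carm1 KO / control), was 0.80, a 1.74-fold difference, beside 0.85 over all 3016 compared genes. A change of at least 1.5-fold (0.585 on the log2 scale) was counted as higher or lower; by it 53 of 67 were higher, beside 66.7% of all genes, and 0 were lower, beside 7.13%. With 1 value per condition no tool gives a p-value for that 0. The changes between the quartiles ran from 0.61 to 0.91 in the ribosomal protein genes and from 0.35 to 1.17 in all genes. After subtraction of the median of all genes, 0 of the 67 stayed at least 1.5-fold higher, beside 11.6%, and 2 became lower, beside 22%; these were Rps3a1 and Rpl41, named after their values were seen.

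The TES ratios themselves were low for the table and close together. Their median was 1.46 in Carm1 KO and 0.910 in control, beside 2.99 in Carm1 KO and 1.71 in control over all genes. In Carm1 KO 62 of 67 lay below the lower quartile of all genes, and in control 61 of 67 did, where 25% would by definition. The upper quartile stood 1.36 times above the lower in Carm1 KO and 1.21 times in control, while over all genes it stood 2.44 times and 3.01 times above.

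**Figure D1:**
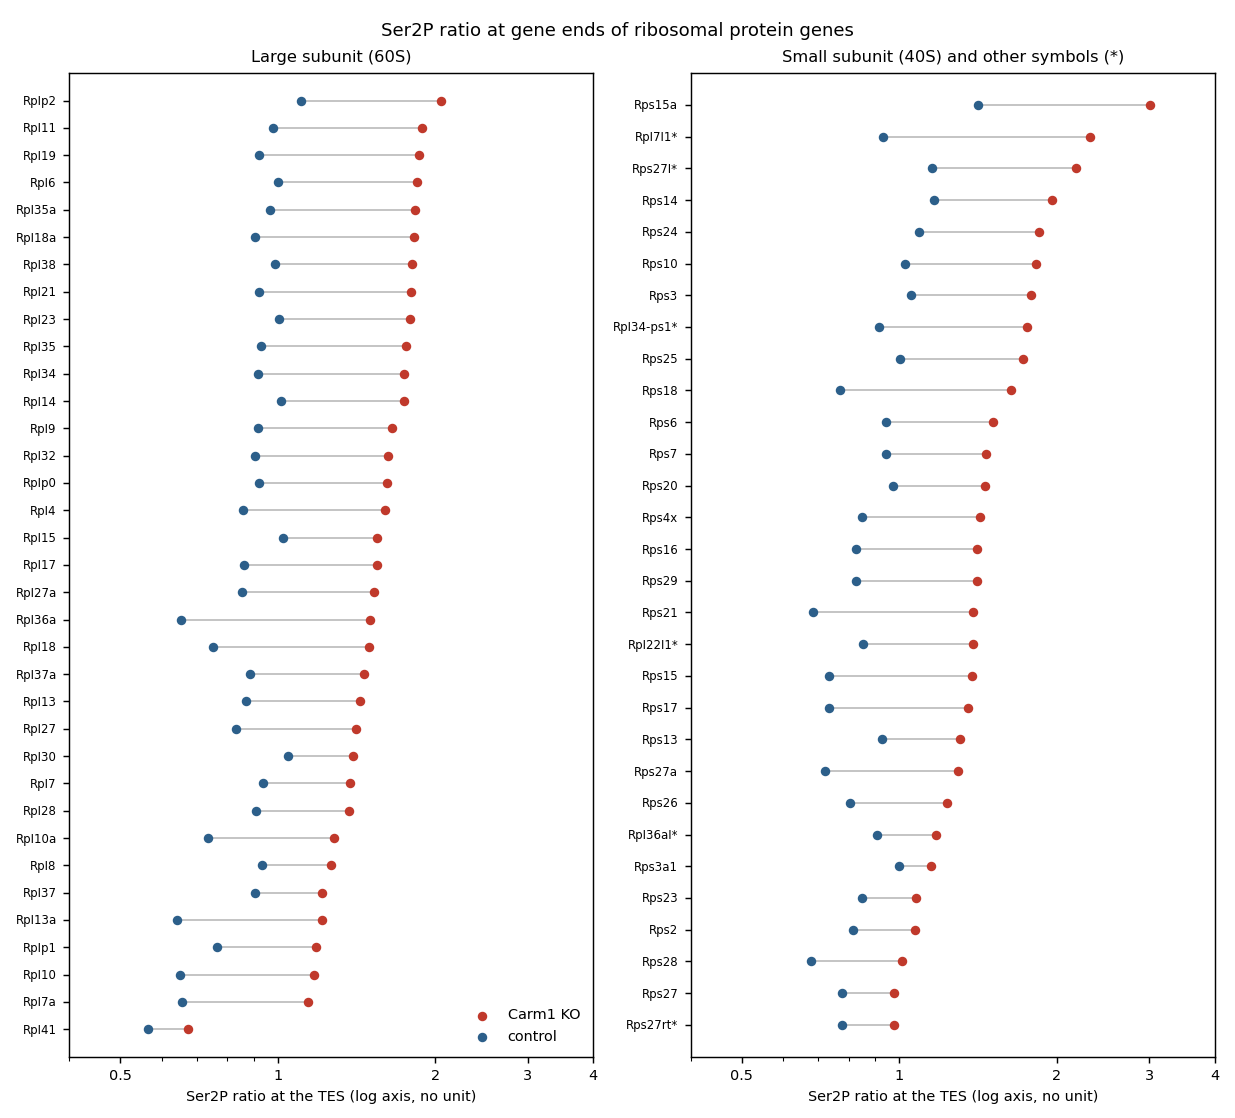
Each row is 1 gene, with its TES Ser2P ratio in Carm1 KO (red) and control (blue) on a log axis, 60S genes left, 40S genes and the other symbols (asterisk) right, ordered by the Carm1 KO value. The red point lies to the right of the blue one in every row drawn, and control values span 0.565 to 1.41.

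Gene length moved with this level. Across all listed genes with an annotated length, Spearman's rho of the TES ratio and the length was 0.57 in Carm1 KO and 0.78 in control (2991 genes), and over the 61 core ribosomal protein genes it was 0.63 in Carm1 KO and 0.57 in control. These describe genes that share libraries. Ribosomal protein genes are short, with a median of 3238 bp beside 18086 bp for all genes. The quartiles of their lengths, 2388 and 4411 bp, bound a middle range that held 38 of them and 235 other genes. Within it the median TES ratio in Carm1 KO was 1.54 in the ribosomal protein genes and 1.76 in the other genes, and in control it was 0.918 in the ribosomal protein genes and 0.915 in the other genes. The upper quartile of the ratio stood 1.25 times above the lower in Carm1 KO and 1.16 times in control. In the other genes it stood 1.48 times and 1.37 times above. Of the other genes, 65.4% in Carm1 KO and 71.9% in control lay below the lower quartile of all genes, beside 91.2% of the ribosomal protein genes in each. The change at this length was 0.82 in the ribosomal protein genes and 0.89 in the others. The quartiles of the change stood 0.20 apart in the ribosomal protein genes and 0.52 apart in the others. At this length 28 of 34 ribosomal protein genes and 191 of 227 others were at least 1.5-fold higher, or 82.4% and 84.1%. Lower by that size were 0 of the 34 and 1 of the 227, and 34 and 222 were above 0. The counts at the TES were thus close to those of other genes of like length.

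**Figure D2:**
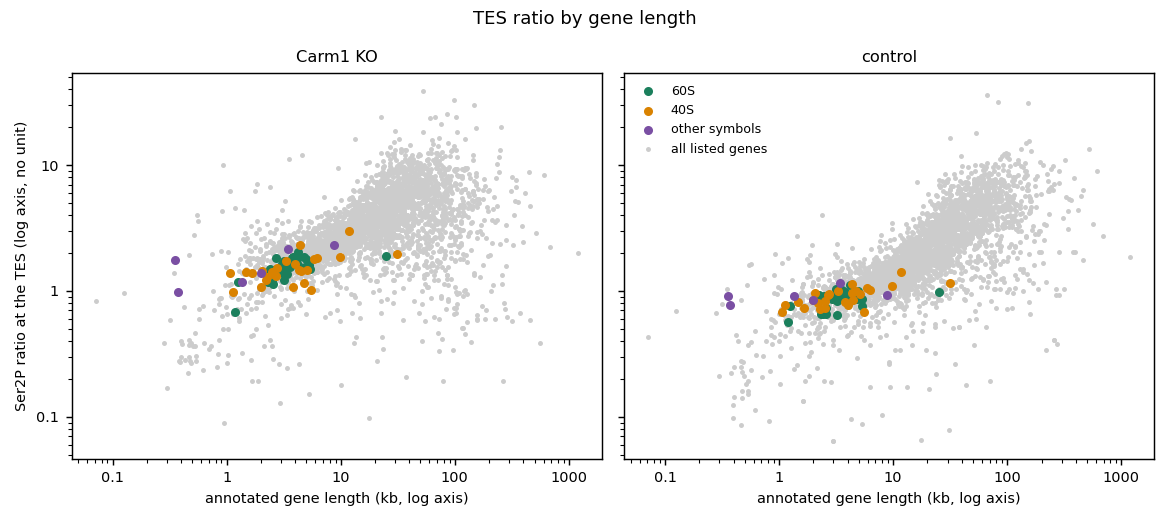
TES Ser2P ratio against annotated gene length in kb, both on log axes, Carm1 KO left and control right, with 60S (green), 40S (orange) and other ribosomal protein symbols (purple) over all listed genes (grey). Most ribosomal protein genes lie within the band of other genes of their length, the short copies Rps27rt and Rpl34-ps1 above it and Rpl11 and Rps14 below it, with a median near 1.46 in Carm1 KO and 0.910 in control.

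Single genes gave the edges of the block at the TES. Rps15a, which sits in the body of the small subunit, had the highest ratio in both conditions, 3.01 in Carm1 KO and 1.41 in control, a change of 1.09. It is also one of the longest of these genes in the annotation, at 11817 bp. The paralog Rpl7l1 had 2.31 in Carm1 KO and 0.932 in control, the largest TES change of all 67 at 1.31. Both lay far above the upper quartile of the family in Carm1 KO, 1.77. Rpl36a, a neighbour of the tRNA exit site, changed by 1.20, with 1.5 in Carm1 KO and 0.652 in control. Rps18, in the head of the small subunit, changed by 1.08, with 1.63 in Carm1 KO and 0.771 in control. In both, the Carm1 KO ratio was ordinary for the family and the control ratio below its lower quartile. In control alone Rps14, whose loss marks the human 5q- syndrome, stood next at 1.16, against 1.95 in Carm1 KO. Rps27l, a paralog known as a p53 target, followed in control at 1.15, against 2.17 in Carm1 KO.

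At the low end, Rpl41, which encodes the smallest ribosomal protein, had the lowest TES ratio in both conditions, 0.675 in Carm1 KO and 0.565 in control, a change of 0.26. Rps3a1 had the smallest change, 0.20, with 1.15 in Carm1 KO and 0.998 in control. Rps23, at the decoding centre, changed by 0.34, with 1.07 in Carm1 KO and 0.850 in control. The paralog Rpl36al changed by 0.37, with 1.17 in Carm1 KO and 0.907 in control. Low control values without a small change were also seen. Rpl13a had 1.22 in Carm1 KO and 0.643 in control, and Rpl10, which joins the large subunit late in its assembly, had 1.17 in Carm1 KO and 0.651 in control. Both were at least 1.5-fold higher, Rpl13a with a change of 0.92 and Rpl10 with one of 0.85.

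Rps27 and its copy Rps27rt could not be separated. Both symbols were kept in the counts and medians over the whole family, so their shared values enter once for each symbol. Rps27, a small subunit gene on chromosome 3, and Rps27rt, a copy on chromosome 9 of 374 bp, had the same value in all 4 columns, with TSS ratios of 0.191 in Carm1 KO and 0.0516 in control and TES ratios of 0.978 in Carm1 KO and 0.779 in control. Their annotated transcripts were identical over 341 of 341 aligned bases, so reads from them cannot be told apart by sequence there. Their promoter windows, from 250 bases before to 50 after the start, share a run of 38 bases. The lines below show the shorter stretch around each start, with the longest pyrimidine run in capitals.
Rps27, chr3:90213619-90213698, minus strand: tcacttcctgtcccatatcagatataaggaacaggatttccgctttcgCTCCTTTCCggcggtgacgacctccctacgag
Rps27rt, chr9:114982710-114982789, minus strand: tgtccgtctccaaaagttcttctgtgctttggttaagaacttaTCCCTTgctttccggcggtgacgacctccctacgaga

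The pseudogene Rpl34-ps1 had values close to those of its parent at the TES and higher ones at the TSS. It is 354 bp long, lies on chromosome 6 and matched an Rpl34 transcript at 352 of 354 bases. Its TES ratio was 1.75 in Carm1 KO and 0.913 in control, beside 1.74 in Carm1 KO and 0.917 in control for Rpl34. At the TSS it had 0.135 in Carm1 KO and 0.0424 in control, beside 0.0936 in Carm1 KO and 0.0264 in control for Rpl34. How reads that match several places were counted is not stated in what was used here, and 53 of the 76 genes have at least 1 annotated pseudogene named after them, so every value in this family may hold reads from a copy. The counting's use of strand is not given either.

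At the starts the ribosomal protein genes were less uniform. The TSS change had a median of 0.77, or 1.71-fold, beside 1.17, or 2.25-fold, over all 2859 compared genes. Of 74 compared genes 62 were above 0, beside 85.8% of all genes; 42 were at least 1.5-fold higher, 56.8% of them beside 71.2% of all genes, and 4 were at least 1.5-fold lower, beside 5.6%. With the median of all genes subtracted, 11 were higher, beside 28.6%, and 32 were lower, beside 28.8%. The changes ran from -1.26 to 3.58, and 21 of 74 lay above the median of all genes. Among other genes of the same middle length range the median was 1.22, beside 0.82 for the 36 ribosomal protein genes compared in it.

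TSS ratios were small in both conditions, with a median of 0.146 in Carm1 KO and 0.0866 in control, beside 0.166 in Carm1 KO and 0.0809 in control for all genes. Other genes in the middle length range had higher medians, 0.263 in Carm1 KO and 0.107 in control. Values this low are coarse. Of the 75 ribosomal protein genes above 0, 26 in Carm1 KO and 24 in control had exactly the value of another gene, beside 54.8% of all genes in Carm1 KO and 39.3% in control. At the TES 5 in Carm1 KO and 4 in control of 67 did, beside 24.9% of all genes in Carm1 KO and 22.3% in control.

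**Figure D3:**
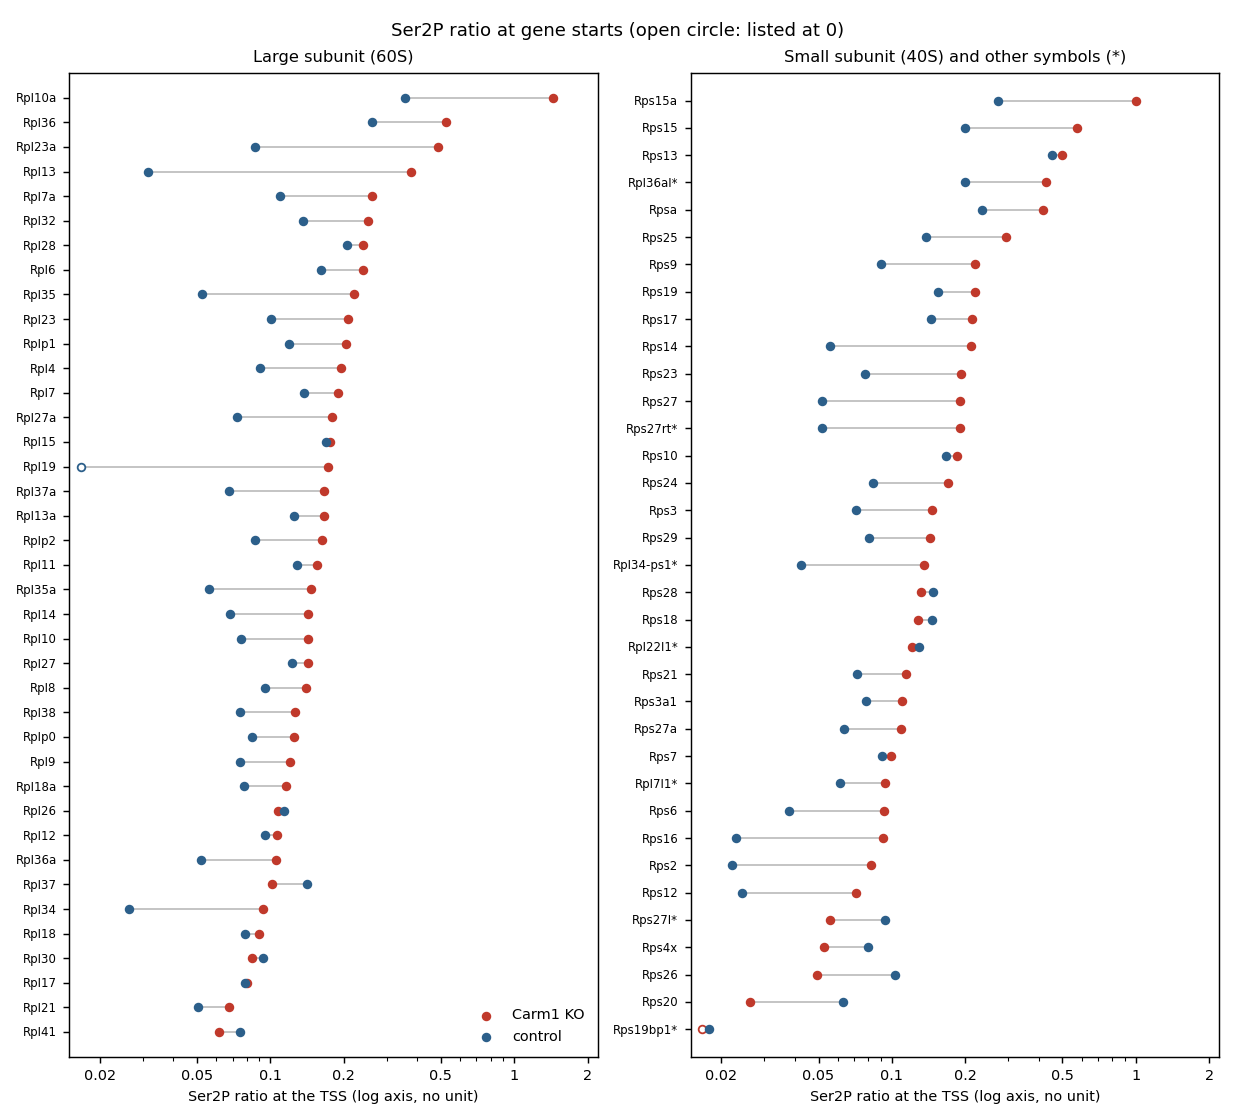
TSS Ser2P ratio of each gene in Carm1 KO (red) and control (blue) on a log axis, arranged as for the TES, with open circles at the axis edge for values listed at 0. The order of red and blue varies between genes, and Rpl10a and Rps15a reach above 1 in Carm1 KO.

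Rpl13 stood apart at the start. Its TSS ratio was 0.376 in Carm1 KO and 0.0315 in control, a change of 3.58, while its TES change of 0.73 was ordinary for the family, with 1.44 in Carm1 KO and 0.868 in control. The control value was low within the table, at percentile 17.7 of listed genes, and the Carm1 KO value lay at percentile 75.2. Rpl23a, at the mouth of the exit tunnel where factors that handle the new chain dock, changed by 2.49, with 0.487 in Carm1 KO and 0.0869 in control. Its neighbour at the tunnel, Rpl35, changed by 2.06, with 0.220 in Carm1 KO and 0.0525 in control. Rps16, whose tail reaches toward the tRNA in the P site, changed by 2.01, with 0.0923 in Carm1 KO and 0.0230 in control. Among these genes the Carm1 KO values of Rpl13 and Rpl23a were high for the family and that of Rps16 was low. Rps2, at the mRNA entry, also had a low start ratio, 0.0822 in Carm1 KO and 0.0221 in control, a change of 1.90.

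The 4 genes with a lower TSS ratio were Rps20, Rps26, Rps27l and Rps4x, 3 of them in the small subunit. Rps20, in the head of the small subunit, had 0.0262 in Carm1 KO and 0.0629 in control, a TSS change of -1.26. Rps26, which contacts the mRNA upstream of the start codon, had 0.0494 in Carm1 KO and 0.103 in control, a change of -1.06. Rps4x, encoded on the X chromosome, had 0.0529 in Carm1 KO and 0.0798 in control, a change of -0.59. At the TES all 4 were above 0. Rps26 had a TES change of 0.62, Rps4x of 0.75 and Rps27l of 0.91 beside its TSS change of -0.74, while Rps20, at 0.58, stayed just below 1.5-fold. Rpl37 was next, with 0.102 in Carm1 KO and 0.141 in control, a TSS change of -0.48 that did not reach 1.5-fold. Both ends come from the same libraries.

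**Figure D4:**
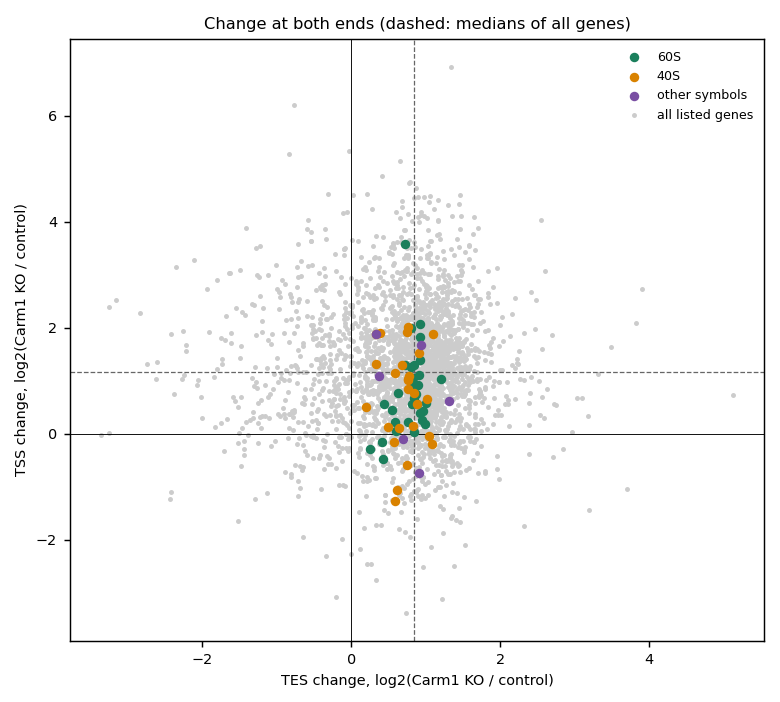
TSS change against TES change, both log2(Carm1 KO / control), for 60S (green), 40S (orange) and other ribosomal protein symbols (purple) over all listed genes (grey), with dashed lines at the medians of all genes, 1.17 and 0.85. The ribosomal protein genes spread from -1.26 to 3.58 along the TSS axis and from 0.20 to 1.31 along the TES axis.

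Rpl19 and Rps19bp1 were listed at 0 in 1 condition at the TSS, and no fold was computed for them. Rpl19, a large subunit protein that forms a bridge to the small subunit, was at 0.173 in Carm1 KO and listed at 0 in control, although its TES ratio was 1.86 in Carm1 KO and 0.919 in control. Rps19bp1 was listed at 0 in Carm1 KO and had 0.0177 in control.

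A few start ratios were far above the rest. Rpl10a, of the mobile L1 stalk, had 1.44 in Carm1 KO and 0.358 in control, a change of 2.003, and Rps15a had 1.00 in Carm1 KO and 0.271 in control. Rps13 had 0.498 in Carm1 KO and 0.454 in control, a change of 0.13. Rpl10a and Rps13 have another transcript at the start in GENCODE M21. A bidirectional noncoding RNA starts 50 bp from the start of Rpl10a, and the antisense Gm44777 starts 60 bp from that of Rps13, and their part in these ratios was not tested. For Rps15a no such gene lies within 1 kb. Of the core genes, 22 of 69 had another gene within 1 kb of the start, with a median TSS change of 1.02 and 14 of 21 higher, and the 47 without one had a median of 0.66 and 24 higher, where 71.2% of all genes were.

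The increase along the gene was similar in both conditions. The TES ratio over the TSS ratio had a median of 10.8 in Carm1 KO and 10.3 in control, beside 16.1 in Carm1 KO and 20.7 in control over all genes. At the middle length range the order turned: the ribosomal protein genes had 12.3 in Carm1 KO and 11.7 in control, and the other genes had 4.81 in Carm1 KO and 7.04 in control. In Carm1 KO the TSS ratio exceeded the TES ratio in Rpl10a, with TES over TSS of 0.894, and in control this was seen in 0 of 66. The steepest increase in Carm1 KO was that of Rps20, 55.4 against 15.4 in control, and Rpl13 went the other way, with 3.82 in Carm1 KO and 27.6 in control. The sources do not give the widths of the start and end windows, so for the shortest genes they may lie close together.

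**Figure D5:**
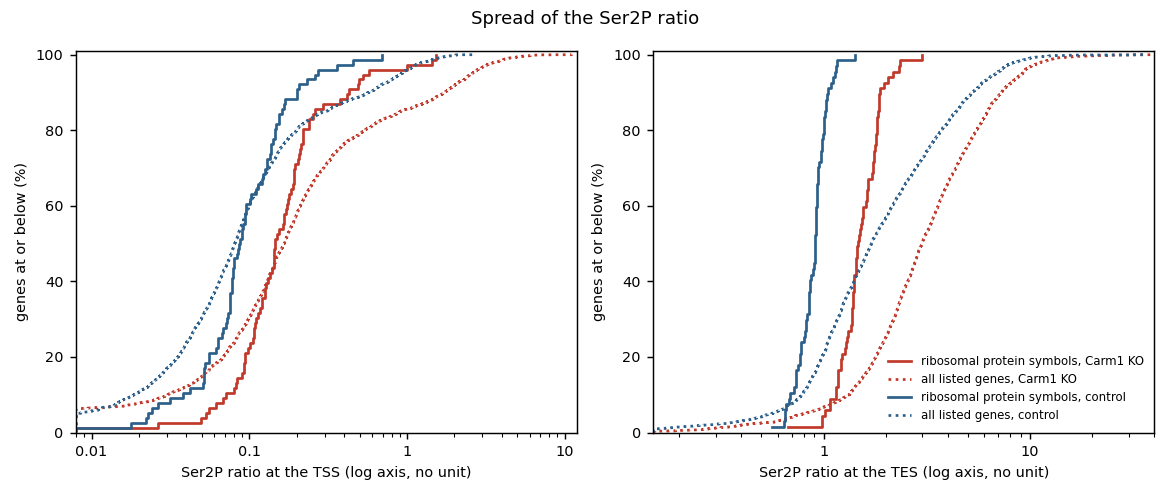
Cumulative share of genes by Ser2P ratio at the TSS (left) and TES (right) on a log axis, for ribosomal protein symbols (solid) and all listed genes (dotted) in Carm1 KO (red) and control (blue). At the TES the solid curves rise steeply around their medians of 1.46 and 0.910, and at the TSS they cross the dotted ones.

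The large and the small subunit gave close values. At the TES 66.7% of all genes were higher, and 84.1% of other genes in the middle length range. The 35 large subunit genes had a median change there of 0.84, with 30 higher, and the 26 small subunit genes had 0.75, with 19 higher. Their TES ratios had medians of 1.54 in Carm1 KO and 0.910 in control for the large subunit, and 1.42 in Carm1 KO and 0.888 in control for the small. At the TSS the large subunit had a median change of 0.71, with 20 of 38 higher and 0 lower, and the small subunit had 0.83, with 18 of 30 higher and 3 lower, beside 71.2% higher and 5.6% lower over all genes. The large minus small subunit difference of the medians was -0.12 at the TSS and 0.09 at the TES. With means in place of medians it was 0.06 at the TSS, the other sign, and 0.08 at the TES. These differences are small beside the spread within a subunit, since the TSS quartiles of the large subunit stood 0.87 apart, and they give no order of the subunits.

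Genes of named working parts of the ribosome were described from lists. The stalk genes Rplp0, Rplp1 and Rplp2, whose proteins recruit elongation factors, and Rpl11, which binds the 5S RNA and Mdm2, were higher by 1.5-fold at the TES in 4 of 4. Rplp2 had TES ratios of 2.05 in Carm1 KO and 1.11 in control, Rplp0 had 1.61 in Carm1 KO and 0.920 in control, and Rplp1 had 1.18 in Carm1 KO and 0.765 in control. Rpl11 had 1.89 in Carm1 KO and 0.978 in control, with a TSS change of only 0.26. Of the exit tunnel genes 5 of 5 were higher at the TES, with changes from 0.84 to 1.02, and 4 of 6 at the TSS. Of the genes at the mRNA entry and decoding site 3 of 6 were higher at the TES, and 4 of 6 were higher and 1, Rps20, lower at the TSS. Over all genes the shares were 66.7% higher at the TES and 71.2% higher and 5.6% lower at the TSS. The TES share was 84.1% among other genes in the middle length range.

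Other small subunit genes with roles outside translation lay inside the same ranges. Rpsa, also known as a laminin receptor, was listed only at the TSS, with 0.415 in Carm1 KO and 0.234 in control. Rps3, which also acts in DNA repair, had TSS ratios of 0.146 in Carm1 KO and 0.0710 in control and TES ratios of 1.78 in Carm1 KO and 1.05 in control. Rps6, the substrate of the S6 kinases, had TSS ratios of 0.0929 in Carm1 KO and 0.0379 in control and TES ratios of 1.51 in Carm1 KO and 0.944 in control. All of these were higher by at least 1.5-fold where compared. So were 71.2% of starts and 66.7% of ends over all genes, and 84.1% of ends of other genes in the middle length range.

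Ribosomal protein genes mutated in human Diamond-Blackfan anaemia, a failure of red cell production, had the smallest TSS median of the lists given here. It was 0.38, with 7 of 18 higher and 1, Rps26, lower, while at the TES it was 0.77, with 13 of 15 higher. All genes had 71.2% higher and 5.6% lower at the TSS and 66.7% higher at the TES. Other genes in the middle length range had 84.1% higher at the TES. Rps19, the gene most often mutated in that disease, was listed only at the TSS, with 0.218 in Carm1 KO and 0.155 in control, a change of 0.49. The 26 genes that host a small nucleolar RNA had medians of 0.90 at the TSS and 0.81 at the TES, and the 50 without one had 0.71 and 0.78.

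The core genes could also be split by their start sequence. The 28 compared genes with a run of at least 7 pyrimidines had a median TSS change of 1.07, with 19 higher and 1 lower, and the 23 with a shorter run had 0.57, with 11 higher and 1 lower, beside 71.2% higher and 5.6% lower over all genes. Their TSS ratios were 0.173 in Carm1 KO and 0.0863 in control with the longer run, and 0.132 in Carm1 KO and 0.0845 in control with the shorter. The 21 compared genes with the ETS letters had a median change of 0.57 and the 30 without them 1.04. Start annotations that are off by a few bases move a gene between such groups, and Rps16, with 1 of the largest increases, is in the group of shorter runs.

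Genes outside the symbol rule gave values of the same size at the TES. Fau, which encodes a ribosomal protein fused to a ubiquitin-like protein, had TES ratios of 1.34 in Carm1 KO and 0.768 in control. Rack1, a scaffold protein of the small subunit, had 1.73 in Carm1 KO and 0.904 in control. At the TSS Fau had 0.421 in Carm1 KO and 0.324 in control, and Rack1 had 0.146 in Carm1 KO and 0.0948 in control.

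Of other genes with TOP mRNAs, 12 were listed, among them translation factors, and 9 of 12 were higher at the TSS with a median of 0.92, and 8 of 10 at the TES with a median of 0.76, near the overall shares of 71.2% for starts and 66.7% for ends. Their TES ratios had medians of 1.90 in Carm1 KO and 1.10 in control. The exceptions at the TES were Tpt1, the translationally controlled tumour protein, with 0.718 in Carm1 KO and 0.817 in control, and Eif3e, an initiation factor subunit, with 3.94 in Carm1 KO and 4.63 in control. Genes of the mitochondrial ribosome, which translates the mitochondrial genome and whose mRNAs are made in the nucleus, were more scattered. Of these 14 of 22 were higher and 0 lower at the TES, with a median of 0.86, and 9 of 19 were higher and 2 lower at the TSS, with a median of 0.49. Over all genes 66.7% were higher and 7.13% lower at the TES, and 71.2% were higher and 5.6% lower at the TSS. Their TES ratios had medians of 2.58 in Carm1 KO and 1.35 in control and reached 11.0 in Carm1 KO and 7.40 in control.

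Genes kept much of their order between conditions. Across the 61 core genes listed at the TES, Pearson's r of the Carm1 KO and control ratios was 0.79 and Spearman's rho was 0.70, and across the 69 at the TSS they were 0.82 and 0.53. Over all genes r was 0.58 and rho 0.74 at the TES, and r was 0.89 and rho 0.69 at the TSS. By rho the core genes thus kept their order less well than all genes, most of all at the TSS. These are correlations across genes, which are not independent replicates, share 1 set of libraries per condition, and share whatever length and neighbouring transcription each gene has.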

How the data were processed

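mNET-seq libraries of B16F10 cells were made with Ser2P and 8WG16 antibodies. The authors deposited 1 value per gene, condition and end. The file headers call it a Ser2 fraction, but it exceeds 1, so it was treated as a linear ratio made by the authors. The sources used here give neither its divisor nor the windows, scaling, strand setting or gene selection. Cutadapt 1.18, TopHat2 2.1.1, mm10 and GRCm38 are named per the submitters' processing notes.

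Changes were log2(Carm1 KO / control) without a pseudocount for genes above 0 in both conditions, and 1.5-fold was the size threshold. No test was possible, since each condition has 1 pooled value. Genes were matched by symbol to GENCODE M21 (76 of 76 ribosomal protein symbols, 3077 of 3117 in all). Neighbours within 1 kb were protein-coding or long noncoding genes. Promoter windows came from RefSeq on GRCm38.p6. Copies were aligned with Biopython 1.88, and pandas 2.3.3 was used for tables.

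The members and gene lists were chosen with earlier results of these data known. Named genes were the 5 largest changes each way at each end, those at least 1.5-fold lower, the 3 highest and 3 lowest ratios per condition and end, genes listed at 0, the non-core symbols, and fixed genes of the stalk, 5S particle and small subunit, with Fau and Rack1; others are examples from the lists. A few genes this would name are not reported here and are left out of the plots by gene; counts and medians hold all members. Alternatives covered scale, threshold, low and shared values, neighbours, hosts of small nucleolar RNAs and gene length.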

Additional observations from a re-analysis of the deposited data

How the results depend on the processing

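Of 90 alternative values, 67 stayed within 0.25 on the log2 scale or within 1.5 times a count. Subtracting the median of all genes turned the median change to -0.40 at the TSS and -0.048 at the TES, and gave 11 higher and 32 lower genes at the TSS and 0 higher and 2 lower at the TES; a factor common to a whole library cannot be told apart from a change in every gene. At 2-fold, 2 genes were lower at the TSS and 8 higher at the TES. At the TSS, 20 genes were higher without genes that share an exact value and 27 without those with another gene within 1 kb. Without hosts of small nucleolar RNAs 27 of 48 were higher, or 56.25%, beside 56.8% of all members and 71.2% of all genes. A count under 42 from such a smaller set is thus not by itself a smaller share. Lower genes numbered 1 without shared values and 0 without genes under the lower quartile of all genes. That quartile filter left 4 higher genes at the TES, a large minus small subunit difference of -0.18 there, and TES over TSS medians (log2) of 3.81 in Carm1 KO and 3.65 in control; without shared values it was 3.01 in control. Every alternative that leaves genes out compares fewer of them. The quartile filter also selects on the ratio itself: the 4 lower genes at the TSS have Carm1 KO ratios under its limit there, 0.0837, while 36 of the 42 higher genes passed it. With means in place of medians the large minus small subunit difference at the TSS was 0.06, against -0.12. The middle length range, and levels against either length range, were chosen after seeing the data. On the log2 scale, the median control TES level over other genes was -0.53 against all genes within the full length range of the family. Against other genes in the middle length range the median level was -0.26 in Carm1 KO and -0.0073 in control at the TES, and -0.84 in Carm1 KO and -0.31 in control at the TSS. These values use the median of all listed family members, including those outside that length range, so they are not matched by length. No paired analysis was possible because each condition has 1 pooled value per gene, and for the same reason no replicate could be left out. Read depth is unknown at both ends.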
